A study of Mus musculus with 4 samples.

Results

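White adipose tissue of female C57BL/6 mice kept on a high fat diet was compared between the F2 and the F0 generation. C57BL/6 is an inbred laboratory strain. The F2 array held RNA mixed from 4 samples and so did the F0 array. Both groups were 9 months old, carried no stated allele or drug, and are labelled as fed for 9 months on a high fat feed, in which fat supplies 60% of the calories. The same series holds 1 array of the F1 generation on the same diet (4 mixed samples) and 1 of chow-fed mice of the same strain, sex and age (3 mixed samples), and both serve here as reference points only. The labels give neither the fat depot nor whether each mixed sample was a separate animal, and they do not say how F1 and F2 were bred or what their parents ate.

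The genes compared were all those with a probe detected at a p-value under 0.01 on the F2 or the F0 array. There were 10823 of them, of 11384 genes detected anywhere in the series. Both arrays detected 9504, the F2 array alone 891 and the F0 array alone 428. With 1 array a side there is no replicate check and no test, so genes are described by size. Levels are background-corrected, quantile-normalised log2 signals, in which a difference of 1 is 2-fold. Where the dimmer array did not detect a gene, the fold is given as "at least", against the lowest detected signal of that array (4.77 on F2 and 4.89 on F0), or against the gene's own signal if that was higher. The 1 technical gauge at hand was how far probes for 1 gene disagreed on F2 minus F0, with an SD of 0.247 over 3349 genes.

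White fat stores triglyceride in adipocytes, which take up fatty acids, esterify them around a droplet coated with perilipins, and release them again when lipases are activated. Between the adipocytes lie capillaries, fibroblast-like progenitors, macrophages, mast cells and lymphocytes, and obesity is known for adding macrophages to this mixture. Some fat depots also enclose lymph nodes, where B and T cells enter from blood through high endothelial venules. The labelled tissue showed its defining markers on both arrays. Lep, which encodes the satiety hormone leptin, lay at 13.86 on the F2 array and 14.51 on the F0 array, and Adipoq, the adiponectin gene, at 13.17 and 13.68 on the same arrays.

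Relative to F0, the F2 array showed a few very large increases and many small decreases. Of the 10823 genes, 526 (4.86%) were at least 2-fold higher and 288 (2.66%) at least 2-fold lower, so 7.52% passed this size either way. Counts within the lists below are to be read beside these shares of 4.86% and 2.66%. At 4-fold the counts were 146 higher and 2 lower, and at 8-fold 63 higher and 0 lower. The middle of the distribution sat slightly below 0, with a median of -0.05, quartiles of -0.36 and 0.28, and 54.3% of genes lower on F2. At 3-fold 93.3% of the genes were the higher ones (238 against 17), whereas at 1.5-fold 47.3% were (1239 against 1380). Of the 526 higher genes 189 were detected on the F2 array alone, and most genes admitted that way are bound to be higher. Among genes detected on both arrays 337 were higher (3.55%) and 259 lower (2.73%), so 56.5% of those called were higher, against 64.6% over all genes. With each array scaled to its median instead of quantile-normalised, 627 were higher and 197 lower, a share of 76.1%. Where a called gene had several detected probes, they shared its sign in 152 of 158 genes.

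Of the genes described below, 146 passed 2-fold, and 106 of them (73 of 92 higher and 33 of 54 lower) passed it also under each of 6 other background, scaling or starting-value settings. Without background correction 35 of the 146 lost the call, with an offset of 50 it was 31, under median scaling 11, and with scaling over probes detected on all arrays 9. The call was lost under at least 1 setting by the higher genes C9, Cd9, Cnr2, Ctsk, Dlk1, Egr3, Hc, Il18, Irf8, Mmp14, Ms4a1, Ms4a7, Osm, Plk1, Socs3, Timp1, Tlr2, Top2a and Upk1b, and by the lower genes Ackr4, Aplnr, Aqp7, Ccl11, Ccl24, Cox7a1, Cry2, Gpd1, Gpihbp1, Hbegf, Hcar2, Irs3, Mccc2, Mlxipl, Nr1d1, Pck1, Pcx, Plin4, Slc2a4, Sox17 and Ucp1. Without background correction 48 of the 146 moved by over 1.5 times.

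**Figure D1:**
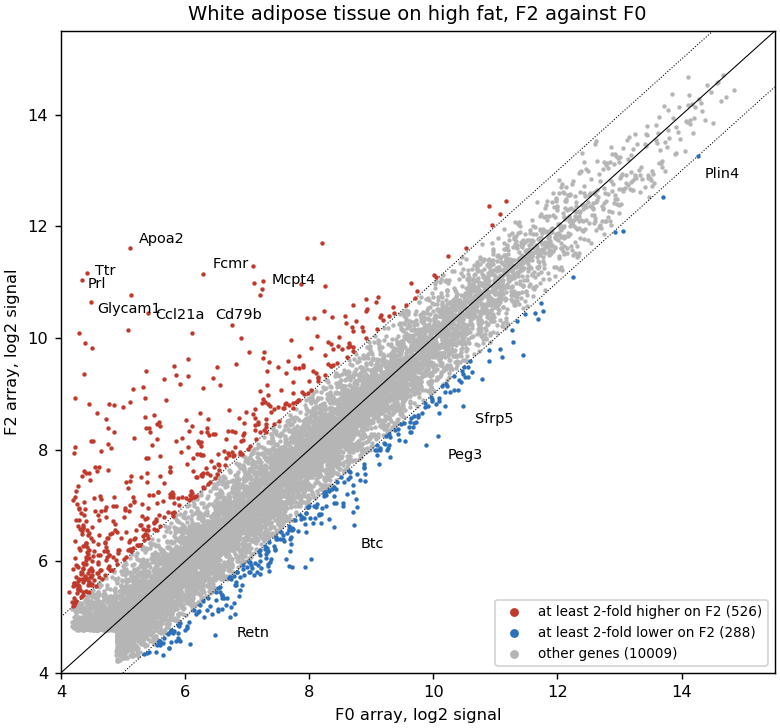
Log2 signal of each of the 10823 genes on the F2 array (vertical axis) against the F0 array (horizontal axis), with equality as a solid line and 2-fold differences as dotted lines. The 526 higher genes reach far above the upper dotted line, while the 288 lower genes stay close under the other, the farthest being Btc.

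B cell transcripts were higher on the F2 array almost throughout, and by large amounts. B cells are the lymphocytes that carry and secrete antibodies. Of 24 listed B cell and plasma cell genes 22 had a named probe, 18 were detected, and 17 of these 18 were at least 2-fold higher on F2 and 0 lower. The F2 array alone detected 7 of the 18, so the count and the sum partly follow from how members were admitted. Over the 11 detected on both arrays the median difference was 3.00, against -0.05 over all genes. The summed signal of the detected members was 11006 on F2, against 1137 on F0. In a bulk sample, more cells of a type and more RNA per cell cannot be told apart, here or in the groups below. Pax5, Cr2, Jchain and Prdm1 were detected on neither array, so the master regulator of B cell identity (Pax5) and that of plasma cells (Prdm1) gave no level.

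Fcmr, a receptor for immunoglobulin M, had a log2 signal of 11.15 on the F2 array, against 6.29 on the F0 array, a 29.2-fold difference. Cd79b, a signalling chain of the B cell receptor, lay at 10.99 on F2 and 7.11 on F0 (14.7-fold), and Mzb1, which helps plasma cells fold antibody, at 11.30 and 7.10 on the same arrays (18.4-fold). The F1 array lay close to F0 here, with 6.17 for Fcmr, 7.01 for Cd79b and 7.33 for Mzb1. Pou2af1, the coactivator that works with octamer-binding factors in B cells, was 11.8-fold higher on F2, and Fcrla, an intracellular Fc receptor-like protein, 12.8-fold. Blk, a B cell tyrosine kinase, was at least 12.6-fold higher, Tnfrsf13c, the receptor for the survival factor BAFF, at least 10.7-fold, and Vpreb3, a small protein of developing B cells, at least 6.94-fold. The smallest differences in the list were those of Blnk, a signalling adaptor that macrophages share (0.75), and Ms4a1, the CD20 gene (5.91 on F2 and not detected on F0). Ighg1, an immunoglobulin heavy chain constant region gene, lay at 7.12 on F2 and was not detected on F0.

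An octamer element, ATGCAAAT on either strand, is the site that octamer factors and Pou2af1 use in many B cell promoters, so promoter windows from 250 bases before to 50 after the start were searched for it (RefSeq, GRCm38.p6). It occurred in 150 of 8733 measured genes with a window (1.72%), in 10 of 402 higher genes (2.49%), in 1 of 214 lower genes (0.467%) and in 2 of 13 B cell genes, which were Blnk and Vpreb3. A share of this size was not particular to B cell genes, although most other lists held no match. The octamer also occurred in 3 of 12 cytokine genes (Il18, Il1rn and Il33) and in 2 of 11 DNA methylation genes. These letters can overlap a match to the D-box TTATGNAA, present in 237 genes (2.71%), 21 higher (5.22%) and 8 lower ones (3.74%). Stretches around the match are shown for 5 of the higher genes, chosen after their values were seen for their known use in lymphocytes, and for the 1 lower gene. The capitals mark the octamer, each stretch ends before the start of transcription, and it is written along the gene's own strand.
Ccr6 (chr17:8235935-8236022, + strand): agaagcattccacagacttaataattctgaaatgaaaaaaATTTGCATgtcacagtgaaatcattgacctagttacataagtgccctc
Vpreb3 (chr10:75948215-75948299, + strand): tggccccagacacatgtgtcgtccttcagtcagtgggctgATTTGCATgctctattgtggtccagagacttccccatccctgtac
Fcho1 (chr8:71725761-71725848, - strand): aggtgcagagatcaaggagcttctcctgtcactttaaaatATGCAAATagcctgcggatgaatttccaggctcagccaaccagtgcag
Prkcb (chr7:122289015-122289102, + strand): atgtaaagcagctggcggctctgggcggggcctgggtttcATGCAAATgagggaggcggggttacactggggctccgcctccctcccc
Cnr2 (chr4:135895101-135895188, + strand): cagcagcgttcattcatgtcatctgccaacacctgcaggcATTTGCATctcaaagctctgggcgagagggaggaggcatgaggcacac
Sucnr1 (chr3:60081781-60081868, + strand): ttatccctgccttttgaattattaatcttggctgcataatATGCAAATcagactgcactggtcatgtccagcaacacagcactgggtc

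These genes read as follows on the arrays. Ccr6, a chemokine receptor of B cells and some T cells, lay at 8.76 on F2 and 4.99 on F0 (13.6-fold). Vpreb3 lay at 7.69 on F2 and was not detected on F0. Fcho1, an endocytic adaptor, was 5.68-fold higher, Prkcb, the protein kinase C of B cell receptor signalling, 3.57-fold, and Cnr2, the cannabinoid receptor of immune cells, 2.37-fold. That the 5 were higher follows from their choice, and their folds are given as a description. Sucnr1, the receptor for extracellular succinate, lay at 9.26 on F2 and 10.79 on F0, 2.89-fold lower. A match describes the letters of the window and is not a measured binding site. A search for the HNF1 element of a liver factor matched 0 windows.

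T cell genes were higher too, by less evenly spread amounts. Of 24 listed genes 21 had a named probe and 17 were detected, Cd5, Cd8a, Ubash3a and Themis being detected on neither array. Of the 17, 4 were seen on F2 alone, which partly sets the count, and 11 were at least 2-fold higher on F2 and 0 lower, with a median of 2.18 over the 13 detected on both arrays. The summed signal was 6923 on F2 and 3826 on F0. Cd3e, a chain of the T cell receptor complex, lay at 9.31 on F2, against 6.04 on F0 (9.67-fold), Cd3d at 9.54 and 6.83, and the costimulatory receptor gene Cd27 at 9.29 and 6.45. Zap70, the kinase recruited to that complex, was 6.21-fold higher and Lat, its membrane adaptor, 5.19-fold. Foxp3, the factor of regulatory T cells, differed by 0.27, and Cd4 was just detected on F2 (4.89). Cd8b1 went the other way by its brightest probe (-0.57) but lay 1.79 higher over the mean of its detected probes, so its direction is not settled. Outside the lists, Btla, an inhibitory receptor of B and T cells, lay at 9.17 on F2 and 5.92 on F0, and Ly6d, a surface protein of early B cells and of some epithelia, at 9.35 and 5.85. Among cytotoxic cell genes Nkg7, a granule protein, was 2.80-fold and Ctsw, a cathepsin of cytotoxic lymphocytes, 2.81-fold higher, whereas the perforin gene Prf1 differed by -0.17.

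Genes of lymph node stroma stood beside the lymphocyte genes. Glycam1, the mucin of high endothelial venules that lymphocytes bind on entry, lay at 10.65 on F2 and was undetected on F0, at least 54.0-fold higher. The T zone chemokine gene Ccl19 was 11.9-fold higher and Ltb, which encodes lymphotoxin beta, 8.74-fold. Ccl21a and Ccl21c, near-identical genes of the chemokine that draws T cells and dendritic cells, were 32.9-fold and 33.5-fold higher, and since their probes may share transcripts each value is uncertain. Other lymph node genes, Madcam1, Chst4 and Fut7, were detected on neither array, and Cxcl13, the B cell zone chemokine, differed by 0.43. Over the lymph node list, in which F2 alone detected 3 of 8 genes and so partly sets the figures, 5 of the 8 were at least 2-fold higher, with a summed signal of 4483 on F2 and 434 on F0. In the lymphatic endothelium list Reln was at least 5.89-fold and Mmrn1 at least 3.38-fold higher on F2, and Lyve1 differed by 0.18. On the chow array Ccl19 lay at 5.96, Ltb at 4.88 and Glycam1 at 4.38, below F2 as for the B cell genes. Ccl21a, at 11.74, Reln, at 9.21, and Mmrn1, at 8.07, were above F2 there.

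Receptors and antigen-presenting molecules showed part of this picture. Of 11 chemokine receptor genes 5 were at least 2-fold higher, among them Cxcr5, which guides B cells to follicles (at least 6.70-fold), and Cxcr3 of activated T cells (4.55-fold), while Ackr4, a scavenging receptor for Ccl19 and Ccl21, was 2.04-fold lower. Of 10 MHC class II genes 3 were at least 2-fold higher. These were H2-Ob (9.13 on F2 and 5.32 on F0), H2-Oa (9.26 and 5.65), the chains of a peptide-loading modulator typical of B cells, and Ciita, the class II transactivator (3.25-fold). The classical chains and the invariant chain differed less, by 0.52 for H2-Ab1, 0.44 for H2-Aa and 0.57 for Cd74. Dendritic cell genes had 1 of 10 members at least 2-fold higher (10%, against 4.86% of all genes) and 0 lower. The higher one was Irf8 (2.16-fold), a factor that B cells also use. Whether lymph node tissue in the mixed samples accounts for these values was not tested.

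Genes typical of hepatocytes, which secrete most plasma proteins, gave the largest single differences. Of 44 listed genes 40 had a named probe and 33 were detected, 22 of them on the F2 array alone, so the count of 27 higher and 1 lower partly follows from how members were admitted. Over the 11 detected on both arrays the median was 3.74. Ttr, the thyroxine and retinol carrier, lay at 11.17 on F2, against an undetected 4.42 on F0, at least 77.8-fold higher. Apoa2, an apolipoprotein of high density lipoprotein, lay at 11.61 on F2 and 5.11 on F0 (90.2-fold), and its partner Apoa1 at 10.78 and 5.12 (50.3-fold). Since these F0 signals lie near the lowest detected one, the folds move with the background step, to log2 differences of 5.38 for Apoa2 and 4.56 for Apoa1 without background correction.

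Other secreted proteins followed. Ambp, the precursor of a plasma protease inhibitor, was at least 32.5-fold higher, Fga, a fibrinogen chain, at least 16.3-fold, and the haem scavenger gene Hpx 15.2-fold. Outside the list, Mat1a, the liver form of methionine adenosyltransferase, was at least 36.7-fold higher, and within it the urea cycle gene Ass1 2.79-fold. The antitrypsin genes Serpina1b and Serpina1d were 13.7-fold and 15.8-fold higher, values that near-identical copies make uncertain. Ahsg, the plasma protein fetuin A, was at least 15.3-fold higher, and outside the list so were Cyp4a14, a fatty acid hydroxylase (at least 15.2-fold), and Azgp1, a secreted glycoprotein of liver and fat (at least 15.1-fold). Not every member was higher. Cyp2e1, a cytochrome P450 that adipocytes express too, was 2.23-fold lower, and Alb, Fabp1, Serpinc1, Fgb, Tat, Tdo2 and Rgn were detected on neither array, albumin being the defining hepatocyte product. The summed signal of the members was 20848 on F2, 6476 on F0 and 16724 on chow. By median, F2 minus chow was 2.48 and F0 minus chow 0.002, so the sum and the median place chow differently. Whether liver RNA in the mixed samples accounts for these genes was not tested.

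Acute phase genes, plasma proteins that change with inflammation, were not uniform. Of 14 detected, 7 were at least 2-fold higher on F2, all of them known chiefly from liver, such as Itih4 (13.3-fold) and Crp, the C-reactive protein gene (at least 5.16-fold). Members that adipose tissue is known to express did not share this. Saa3, an amyloid A protein, lay at 9.68 on F2 and 10.17 on F0, Hp, haptoglobin, at 14.07 and 14.33, and Orm1, orosomucoid, at 11.52 and 12.34. Among genes detected on both arrays the list's median was -0.24, against 1.03 with the genes seen on F2 alone. Among 13 apolipoprotein genes 7 passed 2-fold upwards, with 5 of the 13 detected on F2 alone and so bound to lean that way, but Apoe and Apoc1, which macrophages and adipocytes make, differed by 0.37 and 0.26, and Apol6, an intracellular relative, was 2.33-fold lower.

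The 2 pituitary hormone genes detected were high on the F2 array and on no other. Prl, the prolactin gene, lay at 11.04 on F2, against undetected signals of 4.33 on F0, 4.40 on F1 and 4.29 on chow, at least 71.1-fold higher than on F0. Gh, the growth hormone gene, lay at 9.35 on F2 and 4.36 on F0, at least 21.9-fold. The other 7 pituitary genes with a probe, Pomc, Tshb, Lhb, Fshb, Cga, Ghrhr and Chga, were detected on neither array. The source of the Prl and Gh signal was not tested.

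Mast cell genes rank with the B cell genes by size but not by pattern. Mast cells are granulated immune cells that release proteases and histamine. Of 10 listed genes 9 were detected, Ms4a2 on neither array, and 7 of the 9 were at least 2-fold higher on F2 and 0 lower, with a median of 3.22 over the 8 detected on both arrays. Fcer1a, a chain of the receptor for immunoglobulin E, lay at 9.41 on F2 and 5.37 on F0 (16.4-fold). The granule protease genes were alike, with Mcpt4 at 10.88 on F2 and 7.24 on F0, Cpa3 at 10.78 and 7.21, and Cma1 at 10.22 and 6.76. Cma2, a chymase gene outside the list, lay at 11.70 on F2 and 8.20 on F0. Hdc, which makes histamine, was 3.59-fold higher, and Kit, the stem cell factor receptor, differed by 0.87. The summed signal of the list ran 2416 on chow, 989.8 on F0, 2282 on F1 and 7380.0 on F2, so F0 was the lowest array and F1 stood near chow.

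**Figure D2:**
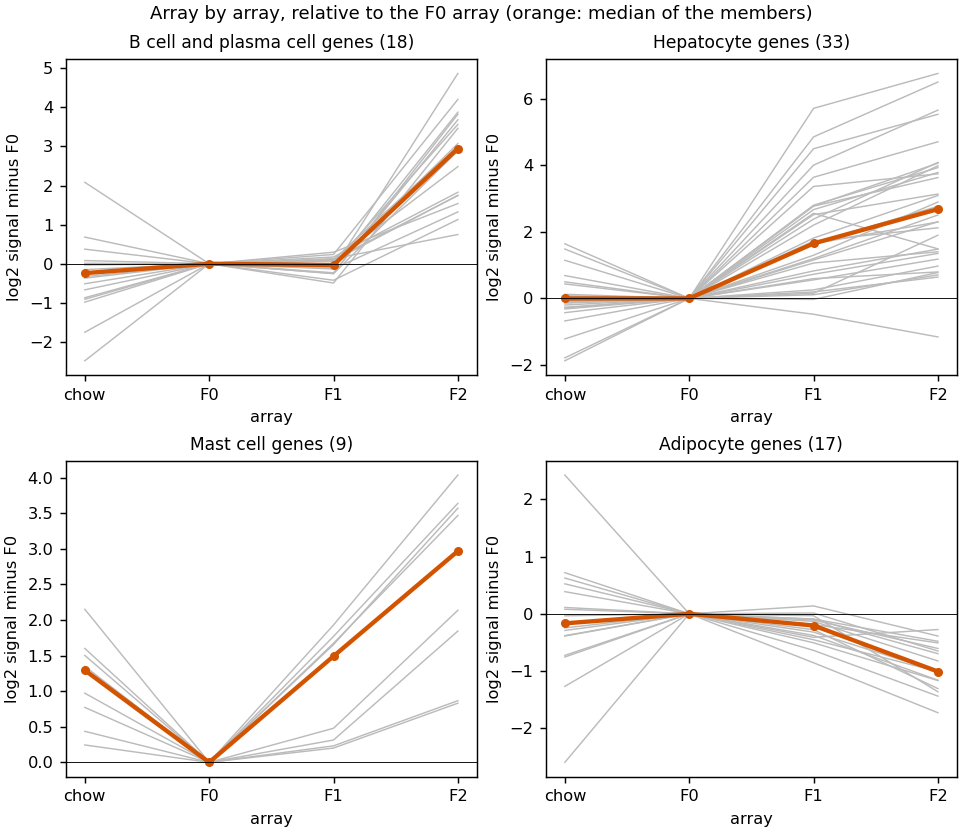
Log2 signal of each member minus its own F0 signal (vertical axis) by array, from chow through F0 and F1 to F2 (horizontal axis), for detected genes of 4 lists, with members in grey and their median in orange. B cell genes leave the F0 level on F2, hepatocyte genes already on F1, mast cell genes are lowest on F0, and adipocyte genes are lower on F2.

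Macrophage genes were higher on F2 as a group, mostly by less than 2-fold. Of 23 listed genes 22 had a named probe and Cybb was detected on neither array. All 21 others had a positive difference, from 0.01 to 1.21 with a median of 0.63, and 2 passed 2-fold, Ctss (2.31-fold), a cathepsin of antigen-presenting cells, and Ms4a7 (2.15-fold), a membrane protein of macrophages. The smallest, that of the engulfment receptor gene Mertk, turned negative when arrays were scaled over probes detected on all of them. Adgre1, the F4/80 antigen, lay at 11.05 on F2 and 10.12 on F0, and the lysozyme gene Lyz2 at 13.48 and 12.61. The summed signal of the list was 81161 on F2, against 53750.1 on F0.

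Lipid-associated macrophages, which scavenge the fat of dying adipocytes, had 3 of 16 genes past 2-fold upwards (18.8%, against 4.86% of all genes). These were the elastase gene Mmp12 (2.54-fold), the cathepsin K gene Ctsk (2.24-fold) and Cd9 (2.05-fold). Trem2, the lipid-sensing receptor, differed by 0.75, Gpnmb by 0.44 and Lgals3, galectin 3, by -0.04. Genes of alternative activation diverged, as Arg1, arginase, was 3.68-fold higher and Retnla, a secreted product of interleukin 4 signalling, lay at 9.66 on F2 and 11.11 on F0, 2.74-fold lower.

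Among signalling molecules of inflammation, 4 of 18 cytokine genes passed 2-fold upwards and 0 downwards, against 4.86% and 2.66% of all genes: the alarmin gene Il33 (3.69-fold), Il16 (3.14-fold), Osm, oncostatin M (2.28-fold), and Il18 (2.02-fold). Tnf differed by 0.59 and Il1b by -0.15. Among 21 chemokines 3 were higher and 2 lower. Ccl5, which draws T cells, was 2.91-fold, Ccl8 2.41-fold and Ccl4 2.34-fold higher, Ccl2, the monocyte chemokine, differed by -0.29, and the eosinophil chemokine genes Ccl11 and Ccl24 were lower, by 2.03-fold and by at least 2.16-fold. Toll-like receptors had 1 of 17 genes past 2-fold, Tlr2 (2.17-fold), and interferon-stimulated genes 1 of 19, Bst2 (2.50-fold), both shares close to the 4.86% of all genes. Complement genes had 2 of 17, both liver products, Hc and C9, detected on F2 alone. Neutrophil genes had 0 of 8 past 2-fold either way.

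Tissue remodelling and proliferation genes leaned upwards. Of 13 genes of matrix metalloproteinases and their inhibitors 4 were at least 2-fold higher, among them the stromelysin gene Mmp3 (10.28 on F2, 8.59 on F0), the collagenase activator Mmp14 (2.05-fold) and the inhibitor Timp1 (2.11-fold), and Timp4, an adipocyte-enriched inhibitor, was 2.34-fold lower. All 18 detected cell cycle genes had a positive difference with a median of 0.66, and the replication licensing gene Mcm5 (2.20-fold), the topoisomerase gene Top2a (2.13-fold) and the mitotic kinase gene Plk1 (2.06-fold) passed 2-fold. Of the other genes measured, Ptn, the growth factor pleiotrophin, was 3.83-fold higher, Dkk3, a relative of the Dickkopf Wnt antagonists, 3.29-fold, and Hmox1, haem oxygenase, 2.41-fold. Among genes of the main fibrillar collagens Col1a1 differed by 0.07, Col1a2 by 0.70 and Col3a1 by 0.54, while the median over all 16 collagen genes, basement membrane and other types included, was -0.27.

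Adipocyte genes were lower on F2 as a group. Of 20 listed genes of adipokines and adipocyte identity 18 had a named probe and Apln was detected on neither array. All 17 others had a negative difference, 9 passed 2-fold, and the median was -1.01 against -0.05 over all genes. Retn, the resistin gene, was 3.32-fold lower on F2, a log2 difference of -1.73 that ran from -2.48 to -1.01 over the other settings. Pck1, which supplies glycerol for triglyceride, was 2.71-fold lower, a log2 difference of -1.44 that was -0.86 without background correction, under 2-fold. Acvr1c, an activin receptor of adipocytes, was 2.57-fold lower and Lipe, hormone-sensitive lipase, 2.24-fold. The hormone genes themselves differed less, with Lep at -0.65 and Adipoq at -0.51. The summed signal of the list was 43893 on F2 and 68530.4 on F0. Whether the share of adipocyte RNA in the mixtures accounts for this was not tested.

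Triglyceride assembly had the lowest median among the lipid lists, with 6 of 11 genes at least 2-fold lower, 0 higher and a median of -1.01. Dgat1, which adds the last fatty acid, lay at 7.98 on F2 and 9.15 on F0, the phosphatidate phosphatase gene Lpin1 at 9.48 and 10.56, and Gpd1, which makes glycerol phosphate, at 8.95 and 9.96. Lipolysis genes had 3 of 14 members past 2-fold, all lower: Lipe, the glycerol channel gene Aqp7 (2.05-fold) and the nicotinic acid receptor gene Hcar2 (2.02-fold). Pnpla2, the first lipase of the cascade, differed by -0.70. Of 12 droplet coat genes 1 was at least 2-fold higher (8.33%, against 4.86% of all genes) and 2 lower (16.7%, against 2.66%). The lower ones were Plin1 (2.48-fold) and Plin4, at 13.26 on F2 and 14.27 on F0, just past 2-fold. Plin2, a coat protein of macrophages and many other cells, differed by 0.26. Of the fatty acid transporters Slc27a1 lay at 8.09 on F2 and 9.89 on F0, 3.49-fold lower, whereas the liver-type Slc27a2 was at least 4.14-fold higher.

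Genes of fatty acid synthesis, with a median of -1.39 for F0 minus chow, had a median of -0.58 for F2 minus F0. Of 17 lipogenic genes 3 were at least 2-fold lower, Thrsp, a lipogenic regulator (2.24-fold), the transcription factor gene Mlxipl (2.12-fold) and Pcx, pyruvate carboxylase (2.02-fold). Fasn, fatty acid synthase, lay at 5.14 on F2 and 5.87 on F0 (chow 8.74), and the elongase gene Elovl6 at 6.50 and 6.83 (chow 11.40). Of 10 genes of brown and beige fat 1 was higher (10%, against 4.86% of all genes) and 2 were lower (20%, against 2.66%). The higher one was Slc27a2, at least 4.14-fold. The lower ones were Ucp1, the uncoupling protein, detected on F0 alone (at least 2.17-fold), and the respiratory subunit gene Cox7a1 (2.14-fold).

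Mitochondrial pathways were shifted together by less than 2-fold. All 14 genes of the citric acid cycle were lower on F2 with a median of -0.41, and 0 passed 2-fold. Of 26 respiratory chain genes 25 were lower, with a median of -0.32, and Cox7a1 alone passed 2-fold. All 14 genes of branched-chain amino acid breakdown, a pathway active in adipocytes, were lower (13 under median scaling) with a median of -0.79. Bcat2, which starts it, lay at 8.56 on F2 and 9.64 on F0, Pccb, a propionyl-CoA carboxylase subunit, at 8.90 and 9.99, and Mccc2, a methylcrotonyl-CoA carboxylase subunit, at 6.19 and 7.21. These 3 were the ones past 2-fold. Among 25 fatty acid oxidation genes the median was -0.54. In this list 1 gene was at least 2-fold higher and 1 lower, 4% each way, near the 4.86% and 2.66% of all genes. The lower one was Pdk4, which spares glucose by blocking pyruvate oxidation (2.48-fold).

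**Figure D3:**
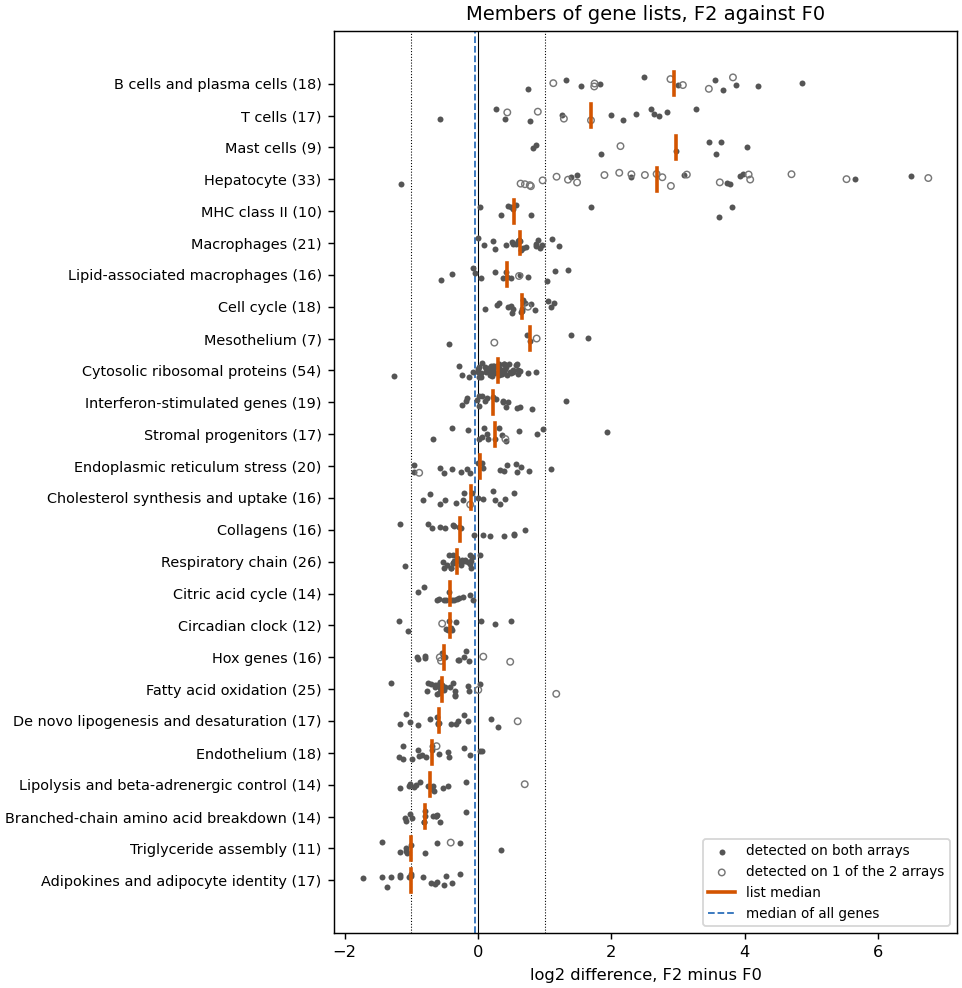
Log2 difference F2 minus F0 (horizontal axis) of each detected member of 26 gene lists (rows, with the number of members), filled where both arrays detected the gene and open where 1 did. Orange bars are list medians, the dashed line is the median of all genes (-0.05) and dotted lines mark 2-fold. Immune and hepatocyte lists spread to the right, and adipocyte, triglyceride and amino acid breakdown lists lie about 1 unit or less to the left.

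Endothelial genes had mostly negative differences. Of 18 members 16 had a negative difference, 3 passed 2-fold, and the median was -0.68. Nos3, the endothelial nitric oxide synthase, lay at 7.69 on F2 and 8.88 on F0 (2.28-fold lower), Sox17, an arterial transcription factor, at 5.94 and 7.06, and Aplnr, the apelin receptor, at 5.10 and 6.23. Pecam1, an adhesion molecule of endothelium, differed by 0.07 and Cdh5, the junction cadherin, by -0.89. Vegfa, the main growth factor of vessels, was 2.68-fold lower, its relative Vegfb differed by -0.71, and Gpihbp1, which holds lipoprotein lipase on capillaries, lay at 9.59 on F2 and 10.59 on F0. The basement membrane collagen genes also differed downwards, Col4a1 by -0.49 and Col4a2 by -0.69.

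The largest decreases were moderate, none above 4.23-fold. Btc, the EGF-family ligand betacellulin, lay at 6.64 on F2 and 8.72 on F0, with 7.75 on F1 and 6.48 on chow. Amhr2, the receptor for anti-Müllerian hormone, was 4.10-fold lower, and Eci3, an enzyme of unsaturated fatty acid oxidation, 3.56-fold. Tshr, the thyrotropin receptor that adipocytes carry, was 2.95-fold lower, the amino acid transporter gene Slc1a5 3.01-fold, and Zfp423, a preadipocyte transcription factor, 2.88-fold. Other members of the EGF family were Nrg4, a ligand secreted by fat (2.20-fold lower), and Hbegf (detected on F0 alone, at least 2.35-fold). Amy1, an amylase gene with close copies, was 2.95-fold lower, and that value is uncertain.

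Genes that mark expanding fat were among them. All 12 detected genes of adipose expansion had a negative difference, 5 of them passed 2-fold, and the median was -0.91. Sfrp5, a secreted Wnt antagonist, lay at 8.78 on F2 and 10.47 on F0 (3.24-fold lower), far above chow at 4.63. Mest, an imprinted gene tied to fat expansion in mice, lay at 9.80 on F2 and 11.08 on F0 (chow 6.54), and Bmp3, a bone morphogenetic protein, was 2.64-fold lower. Of 11 imprinted growth genes Peg3 (3.58-fold), Mest (2.43-fold) and Nnat, neuronatin (2.39-fold), were lower, Dlk1, the preadipocyte factor, was 2.08-fold higher (log2 range 0.54 to 1.52, the call being lost without background correction), and the growth factor gene Igf2 differed by 0.33.

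**Figure D4:**
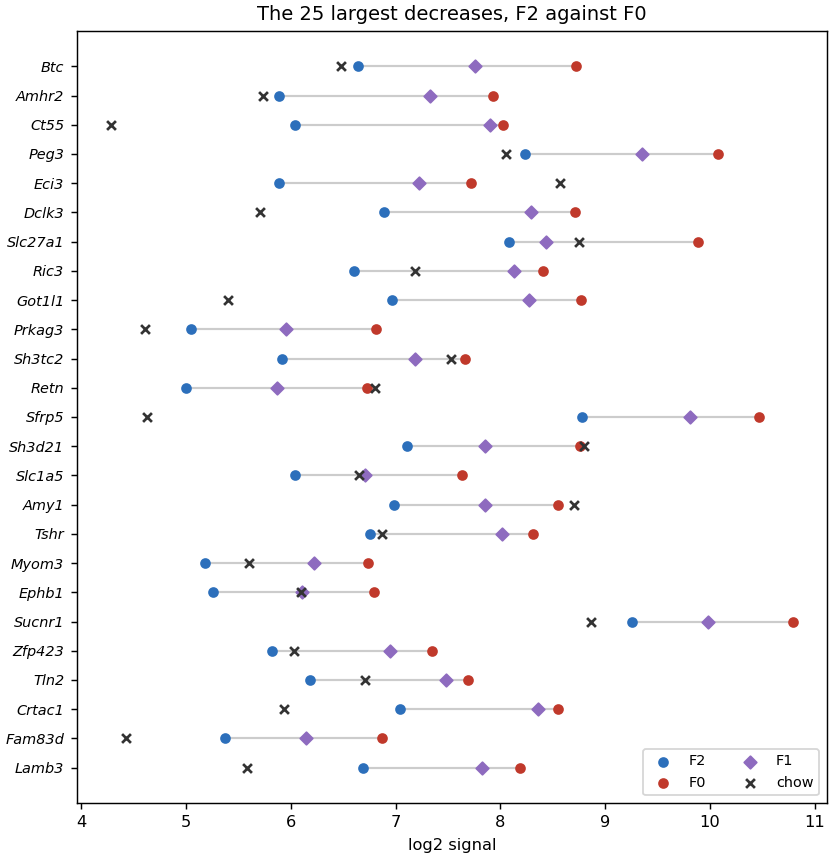
Log2 signal (horizontal axis) of the 25 genes with the largest decrease among those detected on both arrays (rows), on the F2 array (blue), the F0 array (red), the F1 array (purple) and the chow array (black crosses). Each F1 signal lies between F2 and F0, and chow lies on either side.

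Smaller lists of other cells held a few large differences. Of 7 mesothelial genes the uroplakin-family genes Upk3b (3.13-fold) and Upk1b (2.62-fold), made by the cells that cover abdominal organs, were higher on F2. That is 28.6%, against 4.86% of all genes, and 2 of the 7 were detected on F2 alone. The summed signal of the mesothelial list was 1368 on F2 and 1053 on F0, both far below the 6071 on chow. Of 6 red cell and platelet genes 3 were higher, against 4.86% of all genes, among them Alas2, the first enzyme of haem synthesis in red cells (2.23-fold). All 3 lay within 2-fold of chow on F2, and 2 of the 6 were detected on F2 alone, which partly sets the count. Of 17 immediate early genes, 2 of them detected on F2 alone, 3 were higher (17.6%, against 4.86% of all genes). An example was Egr3 (2.35-fold), a rapidly induced transcription factor. Fos differed by 0.08. Of 14 smooth muscle genes 1 was higher and 1 lower, and likewise of 13 skeletal muscle genes, not far from the 4.86% and 2.66% of all genes.

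Insulin and clock genes had few members past 2-fold. Higher were 4.76% of the insulin genes and 0% of the clock genes, against 4.86% of all genes. Lower were 9.52% and 16.7%, against 2.66% of all genes, from 2 genes in each list. Of 21 genes of insulin signalling and glucose uptake, Slc2a4, the insulin-responsive glucose transporter, was 2.01-fold lower, Irs3, an adipocyte insulin receptor substrate of rodents, 2.07-fold lower, and Socs3, which dampens cytokine and insulin signals, 2.01-fold higher. Insr, the receptor itself, lay at 8.76 on F2 and 9.52 on F0. Of 12 clock genes Cry2 (2.26-fold) and Nr1d1 (2.07-fold), both repressors within the clock, were lower, and Dbp, a clock output gene, differed by -0.32.

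Several groups stayed within 2-fold throughout. Reference genes had 0 of 12 past 2-fold and a median of 0.07, with Actb at -0.04 and Gapdh at 0.05. Cholesterol synthesis (16 genes), heat shock (11), Hox genes (16), steroid hormone receptors and their regulators (7) and DNA methylation genes (12) also had 0 past 2-fold. Within that limit the Hox genes leaned lower, 14 of 16 with a negative difference and a median of -0.50. So did the receptor list, with 6 of 7 negative and a median of -0.44. Medians were -0.10 for cholesterol synthesis, -0.11 for heat shock and 0.01 for DNA methylation. Cytosolic ribosomal proteins were slightly higher, 48 of 54 with a positive difference and a median of 0.30, and Rps4l alone lower by over 2-fold. For 2 genes far above chow on both arrays the generations lay within 2-fold: Tph2, the brain-type tryptophan hydroxylase, lay at 11.33 on F2 and 11.38 on F0 (chow 4.48), and Ubd, a ubiquitin-like modifier, at 11.62 and 12.16 (chow 6.71).

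The F1 array was set beside these differences. For each called gene, the share of the F2 minus F0 difference already present on F1 was taken, where 0% means that F1 equalled F0 and 100% that it equalled F2; the F1 array has no replicate either. Among the 526 higher genes F1 lay between in 405 (77.0%), with a median share of 18.7%, and it was nearer F0 in 401. Among the 288 lower genes F1 lay between in 274 (95.1%), with a median share of 30.3%. The F0 signal enters both the difference and the share, so these are descriptions of 3 arrays.

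The gene groups differed in that share. For 17 B cell genes the median was -1.78% and for 11 T cell genes -5.31%, with every one of them nearer F0, so the lymphocyte difference was between F2 and F1. For 27 hepatocyte genes the median was 70.5%, with 23 nearer F2: Ttr already lay at 10.13 on F1 and Apoa2 at 9.96. The 7 mast cell genes had a median of 47.8%, and the 9 lower adipocyte genes one of 32.6%, all nearer F0. For 6 lower triglyceride genes it was 37.3%. Among single decreases Slc27a1 had 80.5% of its difference present on F1 and Ct55, a cancer/testis antigen, 6.24%.

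**Figure D5:**
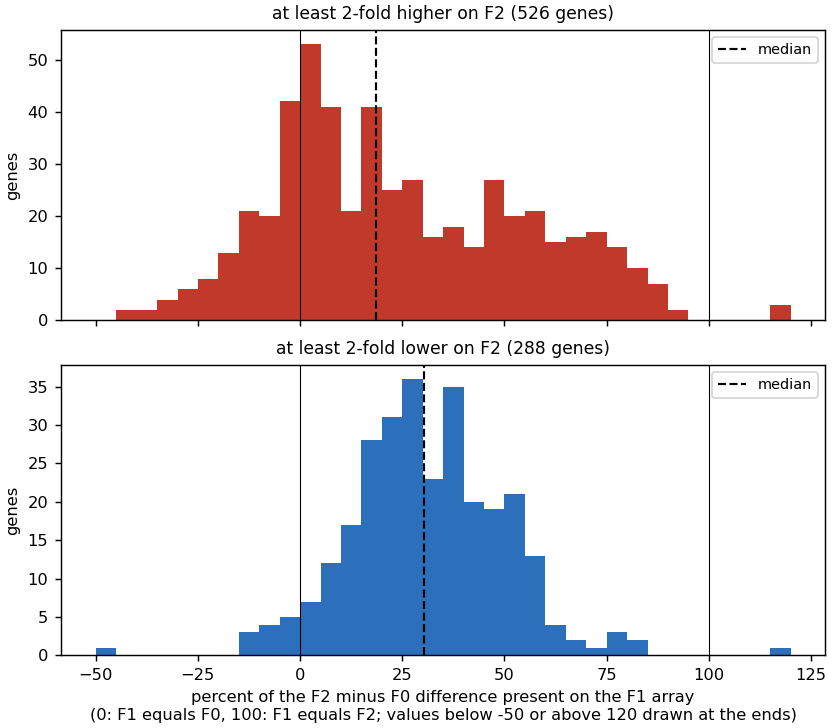
Number of genes (vertical axis) by the percent of their F2 minus F0 difference present on the F1 array (horizontal axis, 5 percent bins), for the 526 higher genes above and the 288 lower genes below, with medians dashed at 18.7% and 30.3%. Higher genes pile up near 0 with a tail beyond 75, and lower genes form 1 hump around the median.

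The higher and lower genes were also set against the chow array. Of the 526 higher genes F2 was farther from chow than F0 in 421. Of the 288 lower genes F2 was farther from chow in 150 and nearer in 138, and 97 of them had been at least 2-fold above chow on F0. The F0 and F2 signals that set the calls also enter the distances from chow, so these counts partly follow from the choice of genes. No such share over all genes was taken. Peg3, at 8.24 on F2 and 10.08 on F0, came near its chow signal of 8.05. Pck1, at 5.22 on F2 and 6.66 on F0, went farther below its chow signal of 7.28.

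Genes of other cell types weigh differently on the 2 sides. The 20 lists of cells other than adipocytes and their progenitors hold 205 of the 10823 genes. They took 86 of the 526 higher, 7 of the 288 lower, and 55 of the 146 genes at least 4-fold higher. Many members were detected on the F2 array alone, such as 22 of 33 hepatocyte and 7 of 18 B cell genes. The split thus partly follows from how members were admitted, and the lists were drawn up with earlier results of these data known. Without these 205 genes 440 were higher and 281 lower, a setting added after the data were seen. So 440 of 526 higher genes are on no such list, which does not say which cells express them.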

How the data were processed

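RNA of white adipose tissue was measured on 4 Illumina bead arrays, each a mix of 3 or 4 samples, with 1 array per group. The deposited signals are probe intensities, not background-subtracted, and share 1 mean on every array, so the authors scaled them, although the step is not given in the sources used here. Each deposited intensity has a detection p-value set by the authors' software, GenomeStudio 2010.2 per the submitters' processing notes. The F2 array detected 18532 of 45281 probes (40.9%) and the F0 array 17435 (38.5%) at a p-value under 0.01. The authors also deposited a value table, a background-subtracted intensity on a linear scale judging by its values, which served as an alternative.

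Background was corrected from the detection p-values (limma 3.58.1 in R 4.3.3, offset 16), and all 4 arrays were quantile-normalised. The log2 values were computed from the deposited intensities in this way. A gene was represented by its brightest probe. Calls are by size, at least 2-fold, because 1 array per group allows no test, and precision is limited by how few arrays there are. Tables and plots used Python 3.11.15, pandas 2.3.3, numpy 2.4.6 and matplotlib 3.10.9, and the counting was tested on simulated data. Of the per-sample columns, 0 were left unused.

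The compared genes and the gene lists were chosen with earlier results of these data known. Named genes are the 25 largest increases and decreases among genes detected on both arrays whose probes share a sign, up to 12 genes each way detected on 1 array, up to 6 per list by size, the brightest of each list and 22 fixed genes. Predicted genes were left out. Any other gene was named after its values were seen. Alternatives changed the background step, normalisation, starting values, probe rule, detection filter and fold, 1 at a time.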

Additional observations from a re-analysis of the deposited data

How the results depend on the processing

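With 1 array of mixed RNA a side, no spread between mice can be stated, and signals near the lowest detected one carry little information on fold. The counts of genes higher and lower were 526 and 288. They were 296 and 111 without background correction, 314 and 126 with an offset of 50, 1239 and 1380 at 1.5-fold, and 238 and 17 at 3-fold. The authors' deposited value table gave 610 higher and 497 lower, median scaling 627 and 197, and genes detected on both arrays 337 and 259. Other normalisations gave 517 to 520 higher and 285 to 304 lower, and the mean over probes gave 482 and 260. Looser detection filters left both counts as they were. That outcome was close to fixed, because signals undetected on both arrays span a range too narrow for a 2-fold difference. Without the lists of other cell types, chosen after seeing the data, they were 440 and 281. A list matched by the start of immunoglobulin gene symbols turned in sign, with -0.26 at a detection p-value under 0.05 and -0.20 with no filter, against 2.47 for Ighg1 alone. The looser filter added Ighmbp2 and Iglon5, which are not immunoglobulin genes, so this says nothing of that family. The median also turned for the acute phase genes with -0.24 on both arrays, against 1.03, since genes detected on F2 alone leave. Lists with medians near 0 (endoplasmic reticulum stress, DNA methylation, neutrophils and smooth muscle) also changed sign under some settings, as did single genes with small differences such as Prf1, Actb, Gapdh and Lgals3, and Cd8b1 under the mean over probes. No setting moved the median of all genes by over 0.1. No paired analysis was possible because each group has 1 array.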

Other observations

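Probes with no gene name of their own leaned the same way as the named genes. Of 2946 such probes detected on the F2 or the F0 array, 260 (8.83%) were at least 2-fold higher on F2 and 71 (2.41%) at least 2-fold lower, with a median log2 difference of 0.02. They were not assigned to genes and enter no count of the report.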
